A study of Homo sapiens with 18 samples.

Results

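Semaphorins, plexins, neuropilins, ephrins, Eph receptors, Slits, Robos, netrins and UNC5 receptors, the families first described as cues that steer growing axons, were followed in 3 BRAF-mutant human melanoma cell lines treated with A-485. Members were taken by symbol alone, as every gene whose current symbol carries the name of one of these families, and each was read at its brightest probe set. The rule found 72 of the 19775 genes with a probe set of their own on the array, and 51 of them passed the filter on dim genes, which left 14130 genes to test. The 72 included 9 EphA and 4 EphB receptors, 5 ephrin-A and 3 ephrin-B ligands, 7 secreted class 3 and 13 membrane semaphorins, 9 plexins, 2 neuropilins, 3 Slits, 4 Robos, 4 netrins and 4 UNC5 receptors. The other 5 symbols that the rule matched were 4 antisense RNAs and UNC5CL, a relative of the netrin receptors.

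A-485 is a drug-like inhibitor that occupies the acetyl-CoA pocket of the acetyltransferases p300 and CBP. A375, SKMEL5 and WM2664 cells received A-485, written as 3 mM in the sample titles, a unit that was not checked, or the solvent DMSO, for 6 h or 24 h in serum-supplemented medium. Each line and time had 1 A-485 array and 2 DMSO arrays, 18 Affymetrix 3' expression arrays in all, and each line is a single established culture model. The series text speaks of sensitive and resistant lines without naming them, so the lines are compared here by name.

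Semaphorins signal through plexins, and most of the secreted class 3 members need a neuropilin to hold the complex together. Ephrins are membrane-bound ligands that signal both into the cell carrying the Eph receptor and back into their own. Melanocytes descend from the neural crest, whose migrating cells are steered by semaphorin, ephrin, Eph and Slit cues, and melanoma lines keep part of this set.

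NRP2, which encodes a co-receptor for class 3 semaphorins and for VEGF-C, was called lower with A-485 in every line at both times, and SEMA4F, a membrane semaphorin, was above both DMSO arrays in every line at both times. The 250 bases before their start sites are shown because NRP2 was the member called lower in all 6 comparisons and SEMA4F the member above both DMSO arrays in all 6. EFNA5, PLXNA1 and PLXND1 were also below both DMSO arrays in all 6, and each was called lower in some of them. Both come from RefSeq on GRCh38.p14, plus strand, at chr2:205682251-205682500 for NRP2 and chr2:74653997-74654246 for SEMA4F. Capitals mark matches on either strand to the GC box (GGGCGG) and to the E-box core known to be bound by MITF (CATGTG).
NRP2: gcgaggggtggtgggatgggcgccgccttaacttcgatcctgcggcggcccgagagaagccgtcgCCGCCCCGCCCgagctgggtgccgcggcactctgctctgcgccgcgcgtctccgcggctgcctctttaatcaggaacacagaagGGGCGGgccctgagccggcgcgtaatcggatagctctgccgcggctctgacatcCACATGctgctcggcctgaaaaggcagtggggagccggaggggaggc
SEMA4F: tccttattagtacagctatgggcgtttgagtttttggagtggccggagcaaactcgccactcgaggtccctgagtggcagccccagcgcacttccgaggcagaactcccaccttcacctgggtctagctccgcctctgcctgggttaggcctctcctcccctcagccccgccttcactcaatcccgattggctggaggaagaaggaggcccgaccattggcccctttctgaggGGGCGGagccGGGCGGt
The NRP2 window held 3 GC boxes, beginning at -185, -180 and -101 from the start site, of which those at -185 and -180 overlap by 1 base, and 1 CATGTG match at -47, read as CACATG on the strand printed. The SEMA4F window held 2 GC boxes, at -17 and -7. Of all 35116 promoter windows of this length, 42.6% held a GC box and 9.42% held CATGTG. Neither window held the palindromic E-box (CACGTG, in 6.34% of all windows), the SOX core (ACAAAG, 13.7%), the AP-1 site (TGANTCA, 6.57%), the cAMP response element (TGACGTCA, 1.65%) or the TATA box core (TATAAA, 10.7%).

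Of the DMSO arrays, 3 stood apart from the rest. WM2664 DMSO 6 h replicate 1 and A375 DMSO 6 h replicate 1 had a low signal at genes that mark SKMEL5, with a median of 1.94% and 0.727% of the SKMEL5 level. WM2664 DMSO 24 h replicate 2 had 0.860% of the A375 level at genes that mark A375, and no A-485 array did so. Between the 2 DMSO arrays of a group the correlation over genes was 0.990 to 0.994. Whether replicates were separate cultures is not stated in the labels, so the p-values reflect the spread of these arrays alone, and that spread may be technical. The melanocyte lineage check found 8 of 9 markers above the floor on all 4 DMSO arrays in SKMEL5 and in WM2664, and 4 of 9 in A375. Of 8 fibroblast markers 2 were above the floor in A375 and 3 in SKMEL5 and WM2664, and of 7 keratinocyte and epithelial markers 3, 1 and 1 in the same order of lines. The summed fibroblast markers in WM2664 read 3227 and 5822 with A-485, against 3088 to 3239 with DMSO, and in A375 and SKMEL5 they fell below the DMSO range. The melanocyte sum fell below it in each line, in A375 to 668 to 844 against 1554 to 2170. The keratinocyte and epithelial sum fell below it in A375 and SKMEL5 and rose above it in WM2664. The endothelial sum fell below it in each line, and a sum of neuron markers rose above it in A375. The part of these shifts in the results was not tested. Of 5 endothelial markers 2 were above the floor in each line while CDH5, VWF and TEK lay at it, as did the leukocyte genes PTPRC and CD14.

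Values below are scaled intensities with a floor of 32, which mean something only within a gene, since probe sets differ in brightness. Differences are log2, ± SE from limma, and a gene was called at a Benjamini-Hochberg adjusted p under 0.05 over all genes tested. In a culture, a lower intensity can come from fewer cells with the transcript or from less of it per cell, which arrays cannot tell apart.

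In DMSO the lines carried different sets of receptors and ligands. Of the 72 members, 17 were above the floor on all 12 DMSO arrays, 22 were at the floor on all 12, and the other 33 varied. A375 minus SKMEL5 called 33 of 51 tested members (13 higher, 20 lower), where 67.9% of all genes were called, 36% higher and 31.9% lower. A375 minus WM2664 called 35 (15 higher, 20 lower), against 67.3% of all genes, 37.3% higher and 30% lower. SKMEL5 minus WM2664 called 28 (14 in each direction), against 60.2%, 31.6% higher and 28.6% lower. The shares of members called, 64.7%, 68.6% and 54.9%, were thus close to those of all genes.

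**Figure D1:**
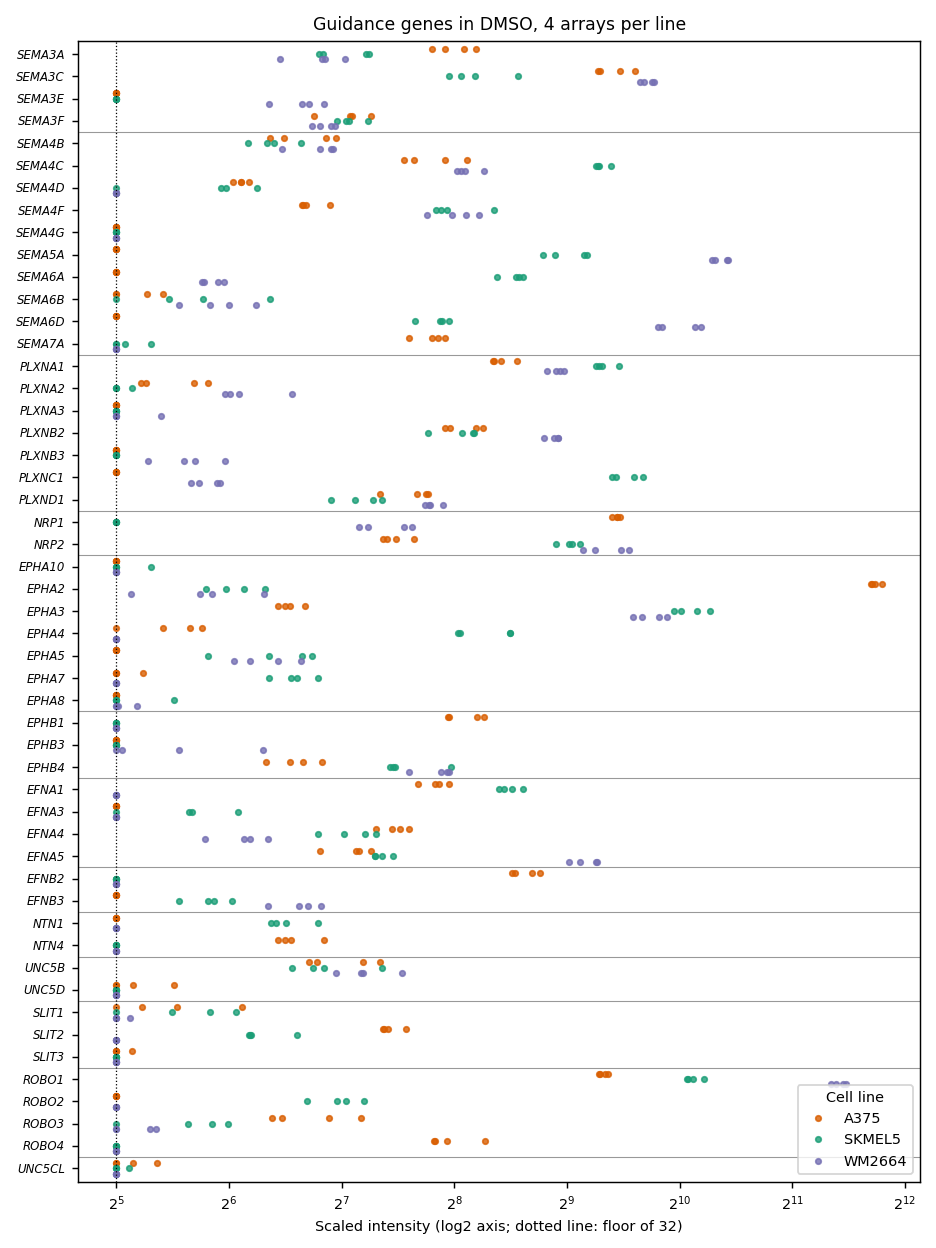
Scaled intensity of the 51 tested members on the 4 DMSO arrays of each line, on a log2 axis, with 1 point per array and horizontal rules between families. EPHA2, NRP1, EFNB2 and EPHB1 stand out in A375, PLXNC1, EPHA4 and SEMA6A in SKMEL5, and SEMA6D, SEMA5A and ROBO1 in WM2664. Positions compare lines within a gene, not genes.

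Among Eph receptors, EPHA2, a receptor well known in invasive melanoma, read 3327 to 3557 in A375, 55.6 to 79.9 in SKMEL5 and 35.0 to 79.4 in WM2664. A375 was above SKMEL5 by 5.68 ± 0.20 and above WM2664 by 5.97 ± 0.20 (limma, adjusted p 1.01e-07 and 7.44e-08). EPHB1 read 246 to 307 in A375 and lay at the floor in both other lines. EPHA3 ran the other way, at 86.6 to 103 in A375, 988 to 1233 in SKMEL5 and 768 to 945 in WM2664. EPHA4 read 262 to 360 in SKMEL5, at most 54.3 in A375, and lay at the floor in WM2664.

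The ligands were split as sharply. EFNB2, the ephrin-B ligand of EPHB4, read 366 to 433 in A375 and was at the floor in the other lines. EFNA1, a ligand of EPHA2, read 205 to 247 in A375 and 336 to 390 in SKMEL5, and was at the floor in WM2664. EFNA5 was highest in WM2664, at 519 to 618, against 112 to 153 in A375 and 157 to 175 in SKMEL5. For EFNA1 and EFNA5 the WM2664 range overlapped with neither other line.

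Neuropilins and semaphorins followed a similar division. NRP1, the co-receptor used by SEMA3A, read 675 to 710 in A375, lay at the floor in SKMEL5 and read 142 to 198 in WM2664. NRP2 read 165 to 200 in A375, 479 to 556 in SKMEL5 and 564 to 750 in WM2664, so A375 was the low line for this co-receptor. The second NRP1 probe set did not repeat the order of A375 and WM2664, with a difference of -0.20 between them. SEMA6D and SEMA5A, both membrane semaphorins, lay at the floor in A375 and read 202 to 248 and 443 to 581 in SKMEL5, and 898 to 1171 and 1250 to 1379 in WM2664. SEMA7A, the GPI-anchored semaphorin that binds plexin C1, read 194 to 242 in A375 and at most 39.6 elsewhere. PLXNC1, its receptor, had the opposite distribution, at the floor in A375, 675 to 818 in SKMEL5 and 50.6 to 60.4 in WM2664, although its fourth-ranked probe set put A375 above SKMEL5 by 0.24.

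For the Slit and netrin systems, ROBO1 read 623 to 661 in A375, 1073 to 1187 in SKMEL5 and 2603 to 2850 in WM2664. Its ligand SLIT2 read 166 to 191 in A375 and 72.3 to 97.1 in SKMEL5, and was at the floor in WM2664. ROBO4, known from endothelium, was above the floor at its brightest probe set in A375 with 227 to 310 and at the floor there in the other lines. Its second probe set was above the floor on 12 arrays, some of them of SKMEL5 and WM2664. NTN4 was seen in A375 at 86.5 to 115, and NTN1 in SKMEL5 at 82.8 to 111. Over the 3 lines, DMSO at 24 h against 6 h called 2 members, EPHB1 (-0.09) and NRP1 (-0.12), both lower, where 14.1% of all genes were called, 6.98% higher and 7.17% lower.

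At 6 h, A-485 lowered more members than it raised in each line. In A375 12 members were called (2 higher, 10 lower) where 12.7% of all genes were called, 5.86% higher and 6.86% lower. In SKMEL5 20 were called (5 higher, 15 lower), against 21.8% of all genes, 12.5% higher and 9.33% lower. In WM2664 13 were called (2 higher, 11 lower), against 25.5%, 14.8% higher and 10.7% lower. The members called were 23.5%, 39.2% and 25.5% of the 51 in A375, SKMEL5 and WM2664. At 24 h there were 14 in A375 (2 higher, 12 lower), where 17.4% of all genes were called, 9.05% higher and 8.39% lower. SKMEL5 had 26 (13 in each direction), against 35.3%, 20.1% higher and 15.1% lower. WM2664 had 17 (7 higher, 10 lower), against 32.2%, 17.6% higher and 14.6% lower. Both sides lay at the floor for 16 members in A375, for 12 in SKMEL5 and for 18 at 6 h and 16 at 24 h in WM2664, so those could not be called. Tested members called in no line at either time included EPHA2, EPHB4, PLXNA2, SEMA3F and UNC5B. UNC5B was still called lower in the mean over the lines at 24 h (-0.86), with each A-485 array below both DMSO arrays. It read 62.3 with A-485 against 110 and 162 with DMSO in A375, 99.7 against 115 and 164 in SKMEL5, and 80.8 against 144 and 186 in WM2664. Without the 3 arrays that carried another line's transcripts this mean was -0.80 and no longer called.

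**Figure D2:**
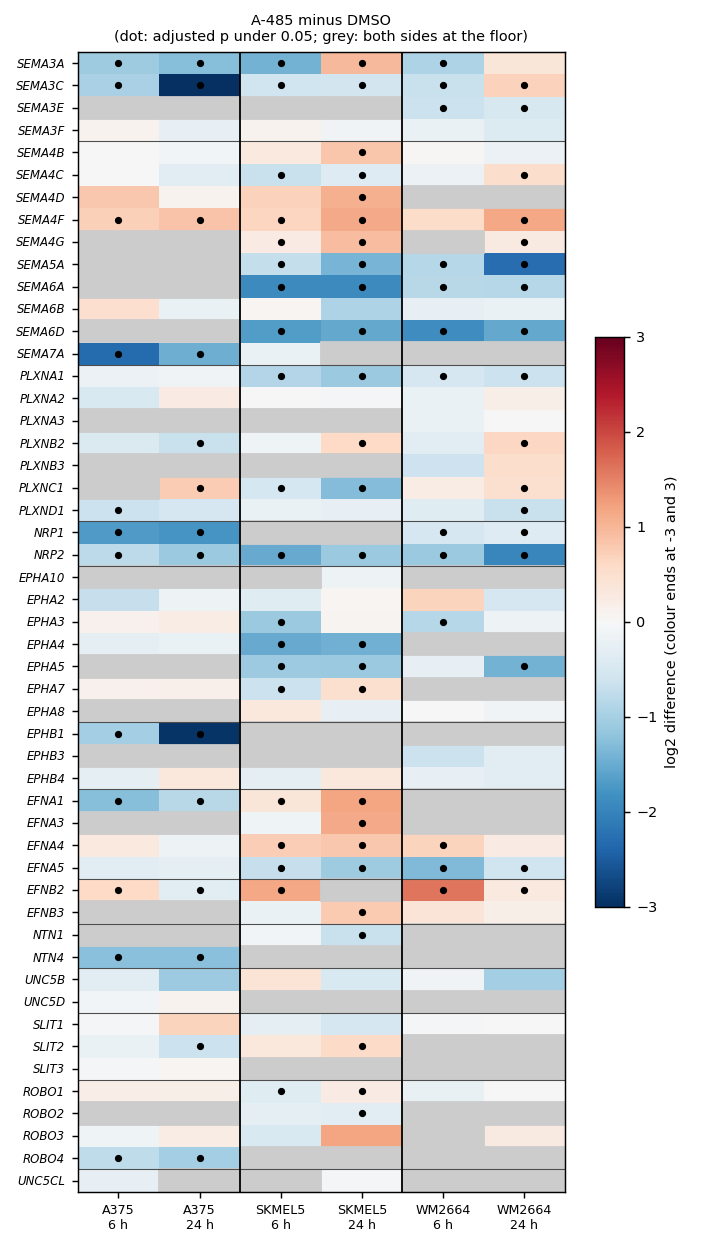
A-485 minus DMSO (log2, colour) of the 51 tested members in each line and time. Dots mark adjusted p under 0.05 and grey cells mark genes at the floor on both sides. NRP2 is blue with a dot in all 6 columns and SEMA4F is red in all 6, while SEMA3C turns from blue to red between 6 h and 24 h in WM2664.

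The class 3 semaphorins SEMA3A and SEMA3C and their co-receptors fell at 6 h. SEMA3A, a secreted repellent, read 123 with A-485 against 271 and 242 with DMSO in A375 at 6 h. It read 56.3 against 152 and 148 in SKMEL5, and 65.0 against 131 and 116 in WM2664. Each A-485 value lay below both DMSO arrays, and the differences were -1.06 ± 0.20, -1.41 ± 0.20 and -0.92 ± 0.20 (limma, adjusted p 0.0124, 0.00245 and 0.0123). At 24 h the lines parted. SEMA3A was 106 with A-485 against 293 and 224 with DMSO in A375 (-1.27 ± 0.20), and 221 against 114 and 111 in SKMEL5 (0.97 ± 0.20). WM2664 gave 128 against 87.5 and 114, a difference of 0.36 ± 0.20 that was not called. The 6 h calls ended without the array of that line that carried SKMEL5 transcripts (DMSO 6 h replicate 1), at -0.98 in A375 (limma, adjusted p 0.0534) and -0.83 in WM2664 (adjusted p 0.0515). With the values as deposited the 5 calls of SEMA3A within single lines ended, at adjusted p between 0.0996 and 0.368.

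SEMA3C, another secreted class 3 semaphorin, differed between the lines at 24 h. At 6 h it fell in each line, by 0.97 ± 0.14 in A375, 0.59 ± 0.14 in SKMEL5 and 0.66 ± 0.14 in WM2664. At 24 h it read 63.5 with A-485 against 620 and 629 with DMSO in A375, a difference of -3.30 ± 0.14 (limma, adjusted p 9.49e-06). In SKMEL5 it read 228 against 292 and 379 (-0.55 ± 0.14), and in WM2664 1311 against 801 and 824 (0.69 ± 0.14, adjusted p 0.00791). The WM2664 value was above both DMSO arrays and the A375 value far below both. Its second probe set gave -2.22 in A375, -0.64 in SKMEL5 and 0.86 in WM2664. When the 3 arrays with another line's transcripts were left out, the rise in WM2664 was 0.71 and no longer called (adjusted p 0.0949). SEMA3E, the plexin D1 ligand, was above the floor in WM2664 alone among the DMSO cultures and fell there by 0.64 ± 0.14 at 6 h and 0.49 ± 0.14 at 24 h.

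NRP2 read 101 with A-485 against 169 and 179 with DMSO in A375 at 6 h, 190 against 529 and 556 in SKMEL5, and 336 against 714 and 750 in WM2664. At 24 h it read 84.4 against 200 and 165 in A375, 230 against 519 and 479 in SKMEL5, and 151 against 608 and 564 in WM2664. No A-485 value overlapped its DMSO pair. The differences were -0.79, -1.51 and -1.12 at 6 h and -1.10, -1.12 and -1.95 at 24 h in A375, SKMEL5 and WM2664, each ± 0.12 (limma, adjusted p between 3.11e-05 and 0.00505). Averaging the lines gave -1.14 ± 0.07 at 6 h and -1.39 ± 0.07 at 24 h. NRP2 has 11 probe sets. Those above the floor were lower with A-485 in 8 of 9, 10 of 11 and 11 of 11 cases at 6 h, and in 9 of 9, 10 of 11 and 11 of 11 at 24 h. With the values as deposited the 6 h call in WM2664 ended, at -0.60 (adjusted p 0.139).

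NRP1 fell where it was present. It read 212 with A-485 against 696 and 675 with DMSO in A375 at 6 h, and 205 against 710 and 695 at 24 h, differences of -1.69 ± 0.05 and -1.78 ± 0.05 (limma, adjusted p 3.15e-06 and 1.92e-06). In WM2664 it fell by 0.51 at 6 h and 0.38 at 24 h, and in SKMEL5 both sides lay at the floor. Its second probe set gave -0.62 and -1.95 in A375, and 0.04 and -0.10 in WM2664. Thus both neuropilins were called lower in A375 and WM2664 at both times, and the WM2664 fall of NRP1 rested on 1 probe set.

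**Figure D3:**
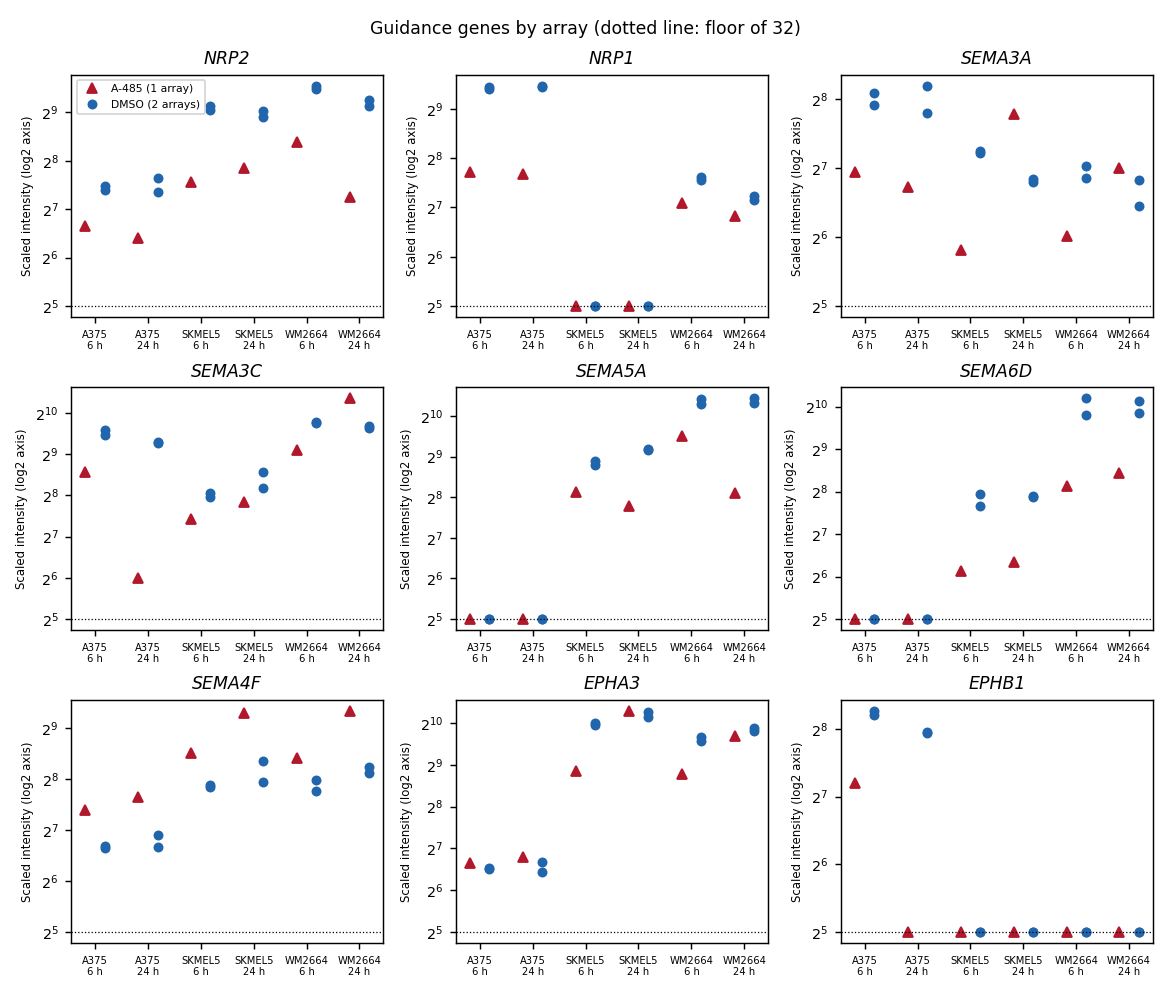
Scaled intensity by array for 9 members, on a log2 axis. Red triangles are the single A-485 array of each line and time, and blue circles to their right the 2 DMSO arrays. NRP2 triangles lie below the circles in all 6 places and SEMA4F triangles above them, whereas SEMA3A and SEMA3C lie below at 6 h and on either side at 24 h.

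SEMA5A, SEMA6A and SEMA6D fell in SKMEL5 and WM2664 at both times, and SEMA7A in A375. SEMA6D, a plexin A1 ligand, read 70.3 with A-485 against 248 and 202 with DMSO in SKMEL5 at 6 h, and 280 against 898 and 1171 in WM2664. The differences were -1.67 ± 0.19 and -1.87 ± 0.19 at 6 h, and -1.53 ± 0.19 and -1.54 ± 0.19 at 24 h. SEMA6A fell by 1.90 ± 0.10 in SKMEL5 at 6 h and by 1.91 ± 0.10 at 24 h. In WM2664 it reached the floor with A-485 at both times, a fall of at least 1.79-fold and at least 1.81-fold.

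SEMA5A fell further with time. It read 279 with A-485 against 443 and 476 with DMSO in SKMEL5 at 6 h (-0.72 ± 0.08), and 220 against 570 and 581 at 24 h (-1.39 ± 0.08). In WM2664 it read 721 against 1250 and 1371 at 6 h (-0.86 ± 0.08), and 273 against 1379 and 1272 at 24 h (-2.28 ± 0.08, limma adjusted p 1.90e-06). All 3 probe sets of SEMA5A were lower in both lines at both times, and with the values as deposited the 6 h call in WM2664 ended, at -0.37 (adjusted p 0.180). SEMA7A fell in A375, the line that carried it, with 45.9 with A-485 against 223 and 232 with DMSO at 6 h (-2.31 ± 0.13) and 78.5 against 194 and 242 at 24 h (-1.46 ± 0.13).

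Among semaphorins, rises came mainly from class 4. SEMA4F read 167 with A-485 against 103 and 100.2 with DMSO in A375 at 6 h, 364 against 229 and 237 in SKMEL5, and 340 against 217 and 253 in WM2664. At 24 h it read 199 against 101 and 119, 623 against 245 and 327, and 641 against 299 and 276 in the same order of lines. The differences at 24 h were 0.86 ± 0.18, 1.14 ± 0.18 and 1.16 ± 0.18 (limma, adjusted p 0.0160, 0.00227 and 0.00231). At 6 h they were 0.72, 0.64 and 0.54, of which the last was not called, and averaging the lines gave 0.63 ± 0.10 at 6 h and 1.05 ± 0.10 at 24 h. All 3 probe sets were higher in every line at both times, and the 2 brightest are _x_at sets, which can read related transcripts too. With no _x_at sets the A375 value at 6 h was 0.37 and not called (adjusted p 0.187). The 6 h calls were fragile, ending for instance without SKMEL5 DMSO 6 h replicate 1, at 0.72 in A375 (adjusted p 0.0697) and 0.62 in SKMEL5 (adjusted p 0.122). The 24 h call in A375 ended without A375 DMSO 24 h replicate 1, at 0.74 (adjusted p 0.0637), and that in WM2664 without the 3 carrying arrays (adjusted p 0.0551).

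Other class 4 genes rose in SKMEL5 at 24 h. SEMA4B was higher there by 0.83 ± 0.20, SEMA4D, the plexin B1 ligand, by 1.07 ± 0.33, and SEMA4G by at least 1.89-fold over a DMSO pair at the floor. The SEMA4D call ended without any 1 of the other lines' DMSO arrays, its value staying 1.07 (limma, adjusted p 0.0671 to 0.0683), or without either SKMEL5 DMSO 6 h array (adjusted p 0.0578). SEMA4G had no DMSO pair above the floor to give a spread. SEMA4C, a plexin B2 ligand, fell in SKMEL5 by 0.66 ± 0.11 at 6 h and 0.39 ± 0.11 at 24 h, and was higher in WM2664 by 0.52 ± 0.11 at 24 h. Of the 10 membrane semaphorins tested, 1 was called higher and 1 lower in A375 at each time, where 5.86% and 6.86% of all genes were at 6 h and 9.05% and 8.39% at 24 h. In SKMEL5 2 were higher and 4 lower at 6 h, against 12.5% and 9.33%, with 4 of each at 24 h, against 20.1% and 15.1%. In WM2664 none was higher and 3 were lower at 6 h by limma, against 14.8% and 10.7%, with 3 of each at 24 h, against 17.6% and 14.6%.

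**Figure D4:**
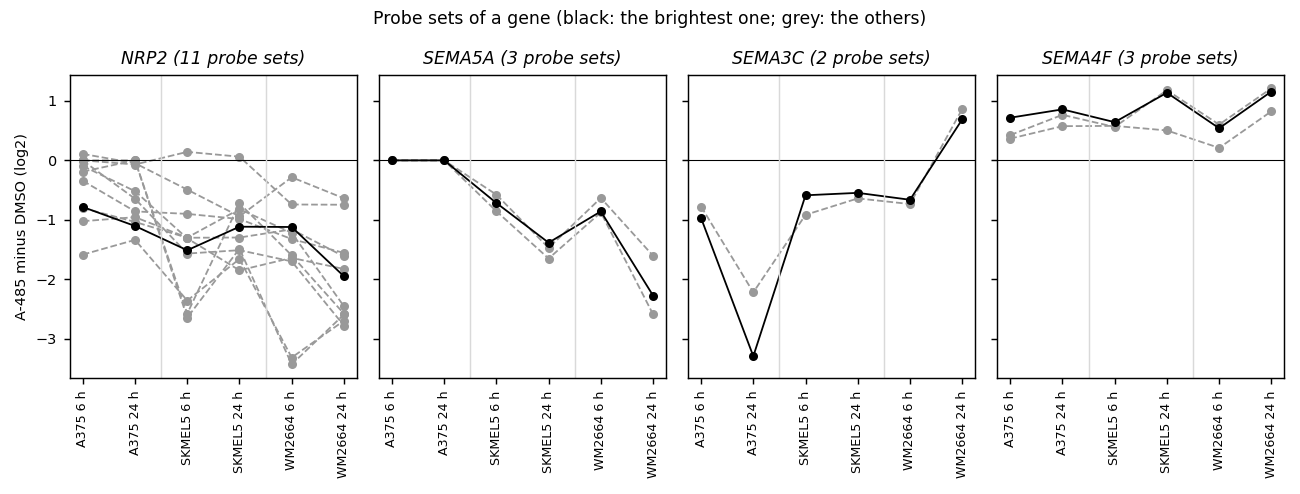
A-485 minus DMSO (log2) at each probe set above the floor on at least 1 array for NRP2, SEMA5A, SEMA3C and SEMA4F, by line and time. Lines join values of 1 probe set, black for the brightest. The 3 SEMA4F sets stay above 0 throughout, both SEMA3C sets cross 0 in WM2664 at 24 h, and most of the 11 NRP2 sets lie below 0.

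Plexin calls came from PLXNA1, PLXNB2, PLXNC1 and PLXND1. PLXNA1, a receptor for class 3 and class 6 semaphorins, read 337 with A-485 against 625 and 614 with DMSO in SKMEL5 at 6 h, and 308 against 705 and 637 at 24 h. It fell there by 0.88 ± 0.10 and 1.12 ± 0.10, and in WM2664 by 0.51 ± 0.10 and 0.65 ± 0.10, while the A375 differences were not called. Its second probe set, above the floor on all 18 arrays, gave -0.08 and -0.52 in SKMEL5 and -0.10 and 0.02 in WM2664, so those falls rest largely on 1 probe set. PLXNC1 read 295 against 675 and 772 in SKMEL5 at 24 h, a difference of -1.29 ± 0.14. It was called higher in WM2664 at 24 h (0.48 ± 0.14) and in A375, where the DMSO pair lay at the floor, by at least 1.70-fold. The A375 call of PLXNC1 ended with the values as deposited, at 0.86, and with the mean of all probe sets, at 0.32. With a floor of 64 that difference was 0. PLXNB2 was called lower in A375 (-0.68 ± 0.15) and higher in SKMEL5 (0.60 ± 0.15) and WM2664 (0.62 ± 0.15) at 24 h. The WM2664 calls at 24 h ended without 1 DMSO 24 h array, PLXNC1 at 0.35 (limma, adjusted p 0.132) without replicate 1 and PLXNB2 at 0.55 (adjusted p 0.0637) without replicate 2. None of the 7 plexins tested was called higher at 6 h in any line by limma, where 5.86% to 14.8% of all genes were, and 1, 2 and 1 were called lower in A375, SKMEL5 and WM2664, against 6.86%, 9.33% and 10.7%.

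Of the 7 EphA genes tested, none in A375, 4 in SKMEL5 and 1 in WM2664 were called lower at 6 h by limma, where 6.86%, 9.33% and 10.7% of all genes were. Of 3 EphB genes, 1 was called lower in A375 at 6 h and none in the other lines. EPHA4 and EPHA7 lay at the floor with DMSO in WM2664 and could not be called lower there. EPHA3 read 465 with A-485 against 988 and 1033 with DMSO in SKMEL5 at 6 h, and 440 against 814 and 768 in WM2664, differences of -1.12 ± 0.10 and -0.84 ± 0.10. At 24 h it read 1248 against 1136 and 1233 in SKMEL5, and 828 against 945 and 903 in WM2664, and neither difference was called. With the values as deposited the 6 h calls of EPHA3 ended, at -0.76 in SKMEL5 and -0.31 in WM2664 (limma, adjusted p 0.0717 and 0.299). EPHA4 stayed low in SKMEL5, at 91.8 against 266 and 262 at 6 h and 133 against 360 and 360 at 24 h, differences of -1.52 ± 0.14 and -1.43 ± 0.14. EPHA7 was lower in SKMEL5 at 6 h (-0.65 ± 0.12) and higher at 24 h (0.48 ± 0.12).

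EPHB1 was present in A375 and fell there. It read 147 with A-485 against 307 and 294 with DMSO at 6 h (-1.03 ± 0.04), and was at the floor against 246 and 248 at 24 h, a fall of at least 7.71-fold (limma, adjusted p 3.97e-08). Its second probe set gave -2.02 and -1.63. EPHA2, which A375 carried far above the other lines, read 2105 with A-485 against 3400 and 3346 with DMSO at 6 h and 3108 against 3557 and 3327 at 24 h, and was not called at either time.

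Ephrins went both ways. EFNA1 read 88.8 with A-485 against 227 and 205 with DMSO in A375 at 6 h, and 135 against 247 and 233 at 24 h, falls of 1.28 ± 0.10 and 0.83 ± 0.10. In SKMEL5 it read 460 against 347 and 364 at 6 h (0.37 ± 0.10), and 821 against 390 and 336 at 24 h (1.18 ± 0.10), so the groups did not overlap and the directions were opposite. The 6 h call in SKMEL5 ended without SKMEL5 DMSO 6 h replicate 1, at 0.34 (adjusted p 0.113). EFNA4 was higher in SKMEL5 at 6 h (0.75 ± 0.18) and 24 h (0.80 ± 0.18) and in WM2664 at 6 h (0.67 ± 0.18), and its 6 h calls ended without either SKMEL5 DMSO 6 h array, at adjusted p 0.0621 and 0.0867 in SKMEL5 and 0.0526 in WM2664 (limma). EFNA5 fell in WM2664 to 213 with A-485 against 519 and 555 with DMSO at 6 h (-1.33 ± 0.13), and to 406 against 618 and 612 at 24 h (-0.60 ± 0.13). In SKMEL5 it fell by 0.70 ± 0.13 and 1.08 ± 0.13. With the values as deposited the 6 h calls ended for EFNA1 in A375, at -1.25 (limma, adjusted p 0.0657), and for EFNA5 in WM2664, at -0.80 (adjusted p 0.0971).

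EFNB2 was called higher in every line at 6 h, with 644 with A-485 against 412 and 433 with DMSO in A375 (0.61 ± 0.04). It read 71.2 in SKMEL5 and 97.6 in WM2664 against DMSO pairs at the floor, at least 2.22-fold and at least 3.05-fold higher. At 24 h it was lower in A375 (-0.31 ± 0.04) and at the floor in SKMEL5. It was still called higher in WM2664, at 39.3 against a DMSO pair at the floor, by at least 1.23-fold (limma, adjusted p 0.00171). That WM2664 call ended with the values as deposited (limma, adjusted p 0.12) and with the mean of all probe sets (adjusted p 0.29). It also ended with the spread of DMSO pairs above the floor alone (adjusted p 0.119), and the difference was 0 with a floor of 64. The second EFNB2 probe set gave 0.80 in A375 at 6 h, but -0.19 in SKMEL5 and 0 in WM2664, so the rise was repeated in A375.

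Slit, Robo and netrin genes were called in A375 and SKMEL5. None was called in WM2664 by limma, where 25.5% of all genes were called at 6 h and 32.2% at 24 h. SLIT2, SLIT3, ROBO2, ROBO4, NTN1 and NTN4 lay at the floor in WM2664 with A-485 and DMSO at their brightest probe sets. They could not be called there, and only ROBO1, ROBO3 and SLIT1 had a signal. ROBO4 read 134 with A-485 against 227 and 227 with DMSO in A375 at 6 h, and 136 against 244 and 310 at 24 h, falls of 0.76 ± 0.12 and 1.02 ± 0.12. The second ROBO4 probe set gave -0.27 and -0.45 in A375, -0.73 and -0.03 in SKMEL5, and -0.30 and -0.05 in WM2664. NTN4 fell in A375 by 1.26 ± 0.12 at both times, and with a floor of 64 the 6 h call ended, at -0.49 (limma, adjusted p 0.0783). SLIT2 was lower in A375 (-0.65 ± 0.15) and higher in SKMEL5 (0.57 ± 0.15) at 24 h. ROBO1 was lower in SKMEL5 by 0.35 ± 0.07 at 6 h and higher by 0.25 ± 0.07 at 24 h.

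Tests of the response itself separated the lines. A375 minus the mean of SKMEL5 and WM2664 called 14 members at 6 h (7 in each direction), where 11.9% of all genes were called, 5.6% higher and 6.32% lower. At 24 h it called 19 (7 higher, 12 lower), against 24.3%, with 12.1% in each direction. SKMEL5 minus WM2664 called 5 at 6 h (2 higher, 3 lower), against 5.56%, 2.89% higher and 2.66% lower, and 11 at 24 h (5 higher, 6 lower), against 15.2%, 7.88% higher and 7.36% lower. For genes present in every line, the difference of A375 from the others was -3.37 ± 0.17 for SEMA3C and -1.94 ± 0.24 for SEMA3A at 24 h (limma, adjusted p 1.91e-05 and 0.00115), and 1.12 ± 0.13 for EPHA3 at 6 h. For SEMA6D (1.54 ± 0.23 at 24 h), SEMA5A (1.83 ± 0.09), EPHB1 (-2.95 ± 0.05) and SEMA7A (-1.46 ± 0.16), at least 1 line lay at the floor on both sides, where a fall could not be seen. Between SKMEL5 and WM2664, the fall of NRP2 was smaller in SKMEL5 at 24 h (0.83 ± 0.17), and SEMA3C (-1.24 ± 0.20), PLXNC1 (-1.77 ± 0.20) and SEMA4C (-0.92 ± 0.16) went lower in SKMEL5. When the 3 arrays with another line's transcripts were left out, the count for SKMEL5 minus WM2664 at 6 h was 8, and it was 0 by limma with a floor of 16.

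Averaged over the lines, 24 members were called at 6 h (4 higher, 20 lower) where 37.1% of all genes were called, 21.9% higher and 15.2% lower. At 24 h 22 were called (5 higher, 17 lower) against 46.5%, 26% higher and 20.5% lower. The median difference of the 51 members was -0.19 at 6 h, against 0.02 for all genes, and -0.05 at 24 h, against 0.003. The change between times called 10 members (7 higher, 3 lower), against 20.7% of all genes, 9.61% higher and 11.1% lower. It was 1.15 ± 0.16 for SEMA3A, 0.66 ± 0.08 for EPHA3 and -0.70 ± 0.06 for SEMA5A. Without WM2664 A-485 24 h replicate 1 the SEMA5A value was -0.17. WM2664 was then missing from the 24 h mean but not from the 6 h mean, so that value compares unlike lines. Within lines SEMA5A went from -0.72 at 6 h to -1.39 at 24 h in SKMEL5, and from -0.86 to -2.28 in WM2664. By line, members called lower at both times included NRP2 in each line, SEMA7A in A375, EPHA4 in SKMEL5 and SEMA3E in WM2664. Opposite calls at the 2 times were made for EFNB2 in A375, for EPHA7 (at its brightest probe set alone), ROBO1 and SEMA3A in SKMEL5, and for SEMA3C in WM2664.

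Partners outside these families gave further values. Of 26 other receptors, co-receptors and ligands of the same pathways, 20 were tested, and over the lines 2 were called higher and 8 lower at 6 h, where 21.9% and 15.2% of all genes were, and 2 and 9 at 24 h, against 26% and 20.5%. KDR, the VEGF receptor that pairs with neuropilins, differed by -1.17 ± 0.10 and -1.41 ± 0.10 at 6 h and 24 h over the lines. VEGFC, a ligand of the NRP2 complex, differed by -0.98 ± 0.06 at 6 h. By line that was -2.18 in A375, -0.76 in SKMEL5 and 0 in WM2664. L1CAM, an adhesion molecule that binds NRP1, differed by -0.44 ± 0.04 and -1.25 ± 0.04, with falls in each line. FLRT3, a partner of UNC5 and Robo receptors, differed by -1.64 ± 0.06 and -1.18 ± 0.06. At 24 h its differences were -2.70 in A375, -0.57 in SKMEL5 and -0.29 in WM2664. ERBB2, which associates with plexin B receptors, was higher by 0.56 ± 0.10 and 0.80 ± 0.10. At 6 h its differences were 0.11 in A375, 0.79 in SKMEL5 and 0.76 in WM2664.

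Of 63 effectors inside the cell, 54 were tested, with 5 called higher and 19 lower at 6 h and 9 and 13 at 24 h, against the same shares of all genes. The list's median was -0.12 at 6 h and -0.06 at 24 h, against 0.02 and 0.003 for all genes. RND3, which lowers cell contractility, differed by -0.91 in A375, -1.74 in SKMEL5 and -1.40 in WM2664 at 6 h. MICAL3, of the family that oxidises actin downstream of plexins, differed by -0.96 ± 0.05 at 6 h and -1.12 ± 0.05 at 24 h over the lines. NCK2, an adaptor of Eph and ephrin-B signalling, and SRGAP1, which binds Robo receptors, differed by -1.42 ± 0.19 and -1.16 ± 0.10 at 6 h. The kinase CDK5, which phosphorylates collapsin response mediators after SEMA3A, was higher at 24 h by 0.52 ± 0.05.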

How the data were processed

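The deposited table holds 1 background-subtracted linear intensity per probe set and array, and the authors' software and scaling are not given in the labels. Per the labels' protocols, total RNA was made into biotinylated cRNA with an Affymetrix 3' IVT kit. Of 54613 probe sets, 41091 had 1 gene symbol. From 19.3% to 22.9% of an array's intensities were below 0, so arrays were quantile normalized on the linear scale, values under 32 were set to 32, and log2 was taken. Each gene was read at its probe set with the highest mean. Genes with a mean log2 under 5.007, the 40th percentile of all probe sets, were dropped (5645 of 19775). A group-means model of all 18 arrays was fitted with limma 3.58.1 in R 4.3.3. Its spread came from the 6 DMSO pairs (6 residual degrees of freedom), and each single A-485 array was taken to vary like them. DMSO pairs at the floor have no spread, which makes the SE of genes that only 1 line carries too small.

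Members, gene lists and tests were chosen with earlier results of these data known. Named genes came mainly from the 6 largest called differences in each direction per line, time and response contrast, 12 for means over lines and 8 for DMSO contrasts. Some of these are not described above, among them EFNA3 in SKMEL5 at 24 h (1.14). Another is EPHA5 in WM2664 at 24 h (-1.41, with A-485 at the floor). Others named for their family, for never being called or for a partner were chosen after their values were seen. Alternatives covered scaling, floor, filter, probe sets, samples fitted, replicate number as a block and leaving out each array. The spread of DMSO pairs above the floor alone was added after the data were seen. Replicate numbers did not pair the samples: the replicate 1 deviations of DMSO groups correlated at -0.04 to 0.06 over 15 pairs of groups. An array was said to carry another line when over 80% of that line's marker genes were above the receiving line's level, with a median over 0.5% of the source, limits set after the values were seen. No protein sequences were used.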

Additional observations from a re-analysis of the deposited data

Results flagged for a closer look

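The response to A-485 differed between lines, by limma's test of the difference in log2 responses, for 14 members between A375 and the mean of the other lines at 6 h and for 19 at 24 h, and for 5 and 11 between SKMEL5 and WM2664. A positive value means a higher response in A375, or in SKMEL5 for the second contrast.

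For A375 at 6 h the differences were 1.77 for SEMA6D, 1.37 for SEMA6A, 1.12 for EPHA3, 0.79 for SEMA5A, 0.68 for EFNA5 and 0.52 for PLXNA1. Those below 0 were -2.21 for SEMA7A, -1.47 for EFNA1, -1.44 for NRP1, -1.26 for NTN4, -1.03 for EPHB1 and -0.77 for EFNB2. At 24 h they were 1.83 for SEMA5A, 1.54 for SEMA6D, 1.38 for SEMA6A, 1.26 for EPHA5, 1.17 for PLXNC1 and 0.77 for PLXNA1. Those below 0 were -3.37 for SEMA3C, -2.95 for EPHB1, -1.94 for SEMA3A, -1.59 for NRP1, -1.46 for SEMA7A and -1.42 for EFNA1. SEMA6D, SEMA6A, SEMA5A and EPHA5 lay at the floor in A375 on both sides, and EPHB1 and NTN4 lay at the floor in both other lines. EFNA1 lay at the floor in WM2664, NRP1 in SKMEL5, and SEMA7A in WM2664 at both times and in SKMEL5 at 24 h.

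Between SKMEL5 and WM2664 at 6 h the differences were 0.51 for NRP1, 0.24 for SEMA4G, -1.52 for EPHA4, -1.06 for SEMA6A and -0.46 for EFNB2. At 24 h they were 1.18 for EFNA1, 0.89 for SEMA5A, 0.83 for NRP2, 0.64 for SEMA4G, 0.38 for NRP1, -1.77 for PLXNC1, -1.43 for EPHA4, -1.24 for SEMA3C, -1.05 for SEMA6A, -0.92 for SEMA4C and -0.30 for EFNB2. NRP1 lay at the floor in SKMEL5, and EFNA1 and EPHA4 in WM2664. SEMA6A reached the floor with A-485 in WM2664, so its fall there is a lower bound, and with a floor of 16 its difference was -0.059 at 6 h and -0.051 at 24 h (adjusted p 0.956 and 0.911). The DMSO pairs of SEMA4G and EFNB2 lay at the floor in both lines. Groups of 1 or 2 arrays allow no test for an outlying sample.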

How the results depend on the processing

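With the values as deposited and no scaling, fewer members were called in A-485 minus DMSO: 9 in SKMEL5 and 3 in WM2664 at 6 h, and 11 in SKMEL5, 5 in WM2664 and 7 in A375 at 24 h. The change of the mean response between times then called 3, A375 against the others 5 at 6 h and 12 at 24 h, and SKMEL5 minus WM2664 0 at 6 h and 3 at 24 h. A floor of 16 gave 0 calls for SKMEL5 minus WM2664 at 6 h, against 5 in the main setting. In the main setting 14 members had an unadjusted p under 0.05 by limma. Fits to the arrays of 1 time called 17 in SKMEL5 and 9 in A375 at 24 h. Without the 3 arrays that carried another line's transcripts, the counts were 12 in SKMEL5 and 6 in A375 at 6 h, 16 in SKMEL5 at 24 h, and 8 for SKMEL5 minus WM2664 at 6 h. With the spread of DMSO pairs above the floor alone, A375 against the others called 9 and SKMEL5 minus WM2664 0 at 6 h. The cause of these shifts was not tested.

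Leaving out 1 array gave 10 to 13 calls in A375, 16 to 23 in SKMEL5 and 12 to 15 in WM2664 at 6 h, and 13 to 15, 24 to 25 and 15 to 18 at 24 h. It gave 20 to 26 for the mean at 6 h, 20 to 30 at 24 h, and 8 to 19 for the change, the 19 without A375 A-485 24 h replicate 1. Where an A-485 array was left out, a mean took the lines that remained. The change between times then set means of unlike lines against each other, as for that 19. A375 against the others gave 12 to 18 and 18 to 21, SKMEL5 minus WM2664 4 to 6 and 11 to 14, and the DMSO contrasts 28 to 30 (SKMEL5 minus WM2664), 32 to 36 (A375 minus SKMEL5) and 33 to 36 (A375 minus WM2664).

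Directions turned for single genes. EFNB3 became -0.47 (floor 16), -0.068 (mean of probe sets) and -0.46 (second probe set) for the mean at 24 h, and 0.18 with a floor of 16 or its second probe set for DMSO A375 minus WM2664. EFNB2 became 0.23 (floor 64), 0.060 (mean of probe sets) and 0.89 (second probe set) for A375 against the others at 6 h, and -0.19 in SKMEL5 at 6 h with its second probe set. For the change between times, EFNA1 became -0.070 without A375 A-485 6 h replicate 1 and -0.11 without SKMEL5 A-485 24 h replicate 1. EPHB1 there ran from -1.13 without SKMEL5 A-485 24 h replicate 1 to 0.34 without A375 A-485 24 h replicate 1. In these leave-outs of EFNA1 and EPHB1 a line was missing from the mean at 1 time only. The values therefore compare unlike lines and do not show that the change within lines turned. With its dimmer probe sets the EPHB1 change was 0.13 and 0.11. SEMA3C for the mean at 24 h ran from -1.92 without WM2664 A-485 24 h replicate 1 to 0.071 without A375 A-485 24 h replicate 1, each a mean of the lines that remained. Dimmer probe sets gave -0.041 for NRP1 in SKMEL5 minus WM2664 at 6 h, -0.20 for NRP1 in DMSO A375 minus WM2664, -0.014 for EPHA7 in the mean at 24 h, and 0.24 for PLXNC1 in DMSO A375 minus SKMEL5. For NRP2 they gave -0.023 and -0.30 in SKMEL5 minus WM2664 at 24 h, and 0.14 in SKMEL5 at 6 h.

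With the replicate number as a block, which the data did not bear out as a pairing, counts were 19 in SKMEL5, 13 in WM2664 and 11 in A375 at 6 h, and 7 of 190 named results were no longer called. Of those 190, 75th percentile scaling ended 6 calls and 63 ended with the values as deposited. Signal near the floor limits every size given for a dim gene.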
